A study of Homo sapiens with 24 samples.

Results

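Transcripts of 47 genes that act in G2 and mitosis were examined in 4 established human lines of glioblastoma, namely DBTRG-05MG, U251MG, T98G and U87MG. The genes were chosen by name, as cyclins, kinases, spindle checkpoint proteins, kinetochore proteins, kinesin motors, spindle proteins and cytokinesis proteins known from textbooks, together with the proliferation markers MKI67 and TOP2A. Of the 43037 genes in the deposited table, 46 carried these names, and the other symbol was not analysed here. A level of at least 5 CPM (tags of a gene per 1000000 tags of its library) in at least 1 library was reached by 45 of the 46, and these 45 were tested among 12327 genes. NUSAP1, a microtubule-bundling spindle protein, was the exception, with a highest value of 0.134 CPM, which corresponds to at most 2 tags in any library.

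Every line was analyzed as a “vec” variant, which received the empty control lentivirus (Puro-Blank), and a “WWOX” variant, which received a lentivirus of the GIPZ system carrying WWOX (pLenti-GIII-CMV-GFP-2A-Puro), the gene of a WW domain oxidoreductase studied as a tumor suppressor. Both variants were treated with polybrene during infection and were then selected with puromycin, so that each comparison sets stable transductants against stable transductants of the same line. Each of the 8 groups of line by variant held 3 libraries, 24 in all, described as biological replicates, prepared by cap analysis of gene expression (CAGE), which counts the capped 5′ ends of RNA. The labels do not say whether replicates came from separate transductions, so p-values measure the spread between these libraries. Whether tags that start at the vector promoter were counted for WWOX is not given in the sources used here. The question of the design was how expression differed between the WWOX and vec variants of a line and between the lines.

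Entry into mitosis is driven by CDK1 bound to cyclin B, which CDC25 phosphatases switch on, and the exit from mitosis follows when the anaphase-promoting complex (APC/C) with its activator CDC20 marks securin and cyclin B for destruction. The genes of this machinery are transcribed late in the cell cycle. In resting and G1 cells the DREAM complex, built on the MuvB core, holds them down, and in G2 MuvB together with B-MYB (the product of MYBL2) and FOXM1 switches them on. MuvB binds the cell cycle genes homology region, a short element near the start site, and NF-Y binds CCAAT boxes upstream of it. Because these transcripts peak in dividing cells, their level in a culture is widely used as a readout of proliferation.

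These elements are visible in the promoters of the genes. RefSeq (GRCh38.p14) promoters, from 250 bases before to 50 bases after the annotated start, were matched for 39 of the 47 symbols. The cell cycle genes homology region was searched as TTTGAA on either strand, as the palindrome TTCGAA and as the further palindrome TTTAAA, and at least 1 of these forms stood in a promoter of 35 of the 39 genes. The share among all 27305 genes with a promoter was 29.0%, and 25.1% of all promoters held one. CCAAT on either strand stood in 33 of the 39, against 39.7% of all genes and 34.6% of all promoters. Both kinds of element were found in 30 of the 39, against 11.7% of all genes and 9.70% of all promoters. CCNA2, MYBL2, AURKB and NEK2 were the 4 genes with none of the searched forms of the homology region, and MYBL2 had no CCAAT either. Other forms of the element were not searched, so these genes may still carry one. The 120 bases before the annotated start are printed for 8 genes, 7 of them because the expression results turn on them and CCNB2 for its regular array of CCAAT boxes. They are given 5′ to 3′ in the direction of transcription, with capitals marking the homology region motifs, CCAAT boxes, and ATTGG where a CCAAT box lies on the other strand.
CCNB1: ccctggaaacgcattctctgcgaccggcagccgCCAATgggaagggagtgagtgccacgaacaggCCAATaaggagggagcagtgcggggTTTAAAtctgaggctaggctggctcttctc
CCNB2: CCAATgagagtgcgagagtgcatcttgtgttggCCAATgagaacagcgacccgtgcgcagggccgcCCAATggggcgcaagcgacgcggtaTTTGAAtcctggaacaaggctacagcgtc
PLK1: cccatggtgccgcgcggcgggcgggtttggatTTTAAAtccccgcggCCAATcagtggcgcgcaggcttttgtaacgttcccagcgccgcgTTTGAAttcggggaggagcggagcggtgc
CDC20: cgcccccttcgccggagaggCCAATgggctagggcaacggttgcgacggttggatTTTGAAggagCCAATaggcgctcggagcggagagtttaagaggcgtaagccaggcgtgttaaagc
KIF20A: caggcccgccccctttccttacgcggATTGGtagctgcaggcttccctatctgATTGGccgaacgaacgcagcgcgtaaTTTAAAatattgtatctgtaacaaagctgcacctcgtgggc
MKI67: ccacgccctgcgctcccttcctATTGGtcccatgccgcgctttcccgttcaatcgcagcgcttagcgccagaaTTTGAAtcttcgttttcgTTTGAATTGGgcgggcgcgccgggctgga
TOP2A: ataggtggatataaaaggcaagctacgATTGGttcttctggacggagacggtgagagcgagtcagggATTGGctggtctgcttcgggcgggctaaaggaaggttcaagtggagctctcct
MYBL2: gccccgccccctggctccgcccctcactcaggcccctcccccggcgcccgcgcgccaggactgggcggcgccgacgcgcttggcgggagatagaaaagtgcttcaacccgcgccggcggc

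The windows lie at chr5:69167030-69167149 (+ strand), chr15:59105026-59105145 (+ strand), chr16:23678769-23678888 (+ strand), chr1:43358861-43358980 (+ strand), chr5:138178992-138179111 (+ strand), chr10:128126424-128126543 (- strand), chr17:40417897-40418016 (- strand) and chr20:43666994-43667113 (+ strand). CCNB2 carried CCAAT at 120, 87 and 54 bases before the start and TTTGAA at 29 bases. PLK1 had TTTGAA at the same distance of 29 bases and TTTAAA at 88 bases. MKI67 had TTTGAA at 47 and 29 bases, the second overlapping an ATTGG in its last base. TOP2A had a pair of ATTGG, at 93 and 53 bases, and none of the searched homology region forms within these 120 bases. In MYBL2 none of these letters occurred in the window, which says nothing of the binding of any factor.

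Depth was similar in all libraries, from 10756072 to 16953689 tags on genes with a median of 14584829, and 3 tags corresponded to 0.177 to 0.279 CPM. The share of tags in the 50 highest genes was 19.9% to 27.8%. Of the astroglial and glioma markers, GFAP ranged from 0.790 to 3226 CPM and VIM from 13.5 to 71.7 CPM over the libraries, while OLIG2 stayed at or below 3.57 CPM. In U251MG, GFAP was at 3115, 2815 and 2035 CPM in vec and at 114.2, 2506 and 3226 CPM in WWOX, so that WWOX replicate 1 stood apart from the other libraries of its line. The leukocyte markers PTPRC, AIF1 and CD3E were at or under 3 tags in every library, and the 4 leukocyte markers summed to at most 0.850 CPM. The 3 endothelial markers summed to at most 13.3 CPM, the 4 epithelial markers to 0.136 to 1290 CPM, mostly KRT18, and the 3 fibroblast markers to 0.851 to 523 CPM, mostly COL1A1. Another annotated gene overlapped 27 of the 46 members, 10 on the same strand and 21 on the opposite strand. Strand handling in the authors' counting is not given in the sources used here, so tags of overlapping genes cannot be told apart with certainty.

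WWOX itself was read first, as the check of the labels. It was measured at 40.1, 33.9 and 39.8 CPM in the U87MG vec libraries and at 66.0, 61.3 and 61.0 CPM in the WWOX libraries. In DBTRG-05MG it was at 20.4, 22.2 and 21.3 CPM in vec and at 32.0, 28.2 and 28.0 CPM in WWOX. The WWOX libraries lay above all vec libraries in these 2 lines. In T98G the values were 38.6, 57.2 and 34.2 CPM in vec and 45.1, 61.8 and 60.0 CPM in WWOX, and in U251MG 31.4, 36.8 and 32.1 CPM in vec and 56.7, 17.4 and 38.0 CPM in WWOX. Both of these lines overlapped, and the library labelled U251MG WWOX replicate 2, at 17.4 CPM, lay below every vec library of its line. The log2 fold change (log2FC) of WWOX versus vec was 0.39 in DBTRG-05MG, −0.01 in U251MG, 0.38 in T98G and 0.66 in U87MG, and its standard error (SE) was 0.22 in every line. In the limma model with Benjamini-Hochberg adjustment none of the 4 passed the threshold of 0.05, with adjusted p of 0.770, 1.00, 0.557 and 0.135 in the same order. In U87MG WWOX was called by DESeq2 on recovered tags (adjusted p of 0.0470) and by limma without U251MG WWOX replicate 1 (0.0455). With libraries weighted by how well they follow the model, chosen after seeing the data, limma called it in U87MG (0.00046) and T98G (0.00065). In U251MG and DBTRG-05MG no alternative called it. Every direction given for U251MG below therefore refers to libraries as they are labelled.

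The summed level of the mitotic genes differed widely between replicate libraries of a group. Summed over the 46 genes, the U251MG vec libraries held 1181, 4164 and 2182 CPM and the WWOX libraries 276, 992 and 3159 CPM. The U87MG vec libraries held 1438, 5003 and 4494 CPM and the WWOX libraries 1937, 3661 and 3610 CPM. The highest library of a group was 11.4 times the lowest in U251MG WWOX, 4.07 times in T98G WWOX, 3.53 times in U251MG vec and 3.48 times in U87MG vec, whereas DBTRG-05MG differed by 1.60 times in vec and 1.59 times in WWOX. In T98G the sums were 1704, 3153 and 1294 CPM in vec and 678.5 CPM, 2760 CPM and 1663 CPM in WWOX. DBTRG-05MG held 1797, 2025 and 2879 CPM in vec and 2472, 1836 and 1555 CPM in WWOX. In all 4 lines the ranges of the vec and WWOX libraries overlapped.

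**Figure D1:**
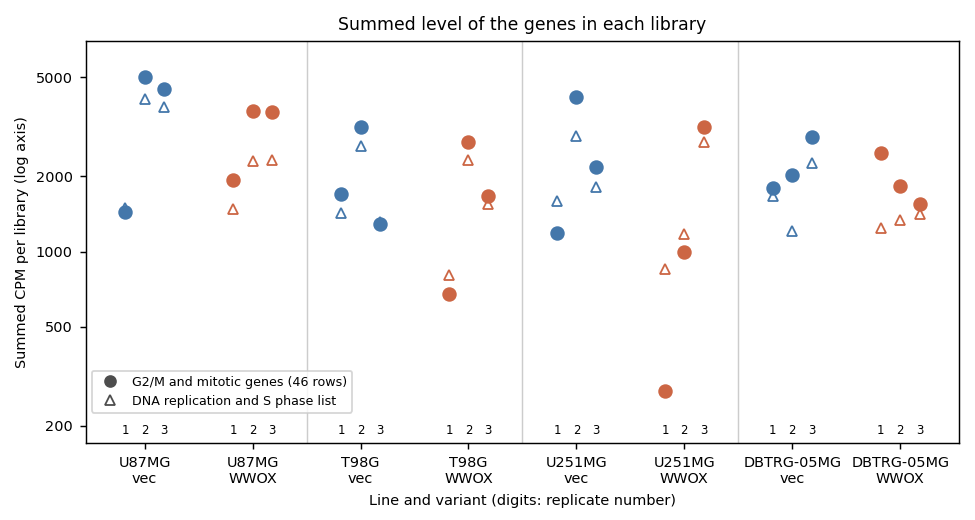
Summed CPM of the 46 G2 and mitotic genes (circles) and of the DNA replication genes (triangles) in each of the 24 libraries on a log axis, by line and variant. The U251MG WWOX libraries spread from 276 to 3159 CPM, and the vec and WWOX libraries of every line overlap.

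In several groups the replicate libraries stood apart by most of the gene set rather than by single genes. Replicate 1 of U251MG WWOX was the lowest of its group for 39 of the 45 tested members and replicate 3 the highest for all 45. Replicate 1 of T98G WWOX was the lowest of its group for 45 of 45, and replicate 1 of U87MG vec the lowest for 44 of 45. In DBTRG-05MG this held less, as the library with the lowest sum was lowest for 26 of 45 in vec and 29 in WWOX. Its library with the highest sum was highest for 40 in vec and 36 in WWOX. In U87MG WWOX these counts were 38 for the lowest and 27 for the highest. The summed level of the DNA replication and S phase genes differed between the highest and lowest library by 3.23 times in U251MG WWOX, 2.88 times in T98G WWOX, 2.72 times in U87MG vec, 2.02 times in T98G vec, 1.57 times in U87MG WWOX and 1.14 times in DBTRG-05MG WWOX. In DBTRG-05MG vec it differed by 1.87 times, more than the mitotic sum did, and in U251MG vec by 1.82 times. The part of these libraries in each result was measured by leaving them out, as given beside the results. In bulk RNA, fewer cells in G2 and mitosis and less of these mRNAs per cell cannot be told apart.

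**Figure D2:**
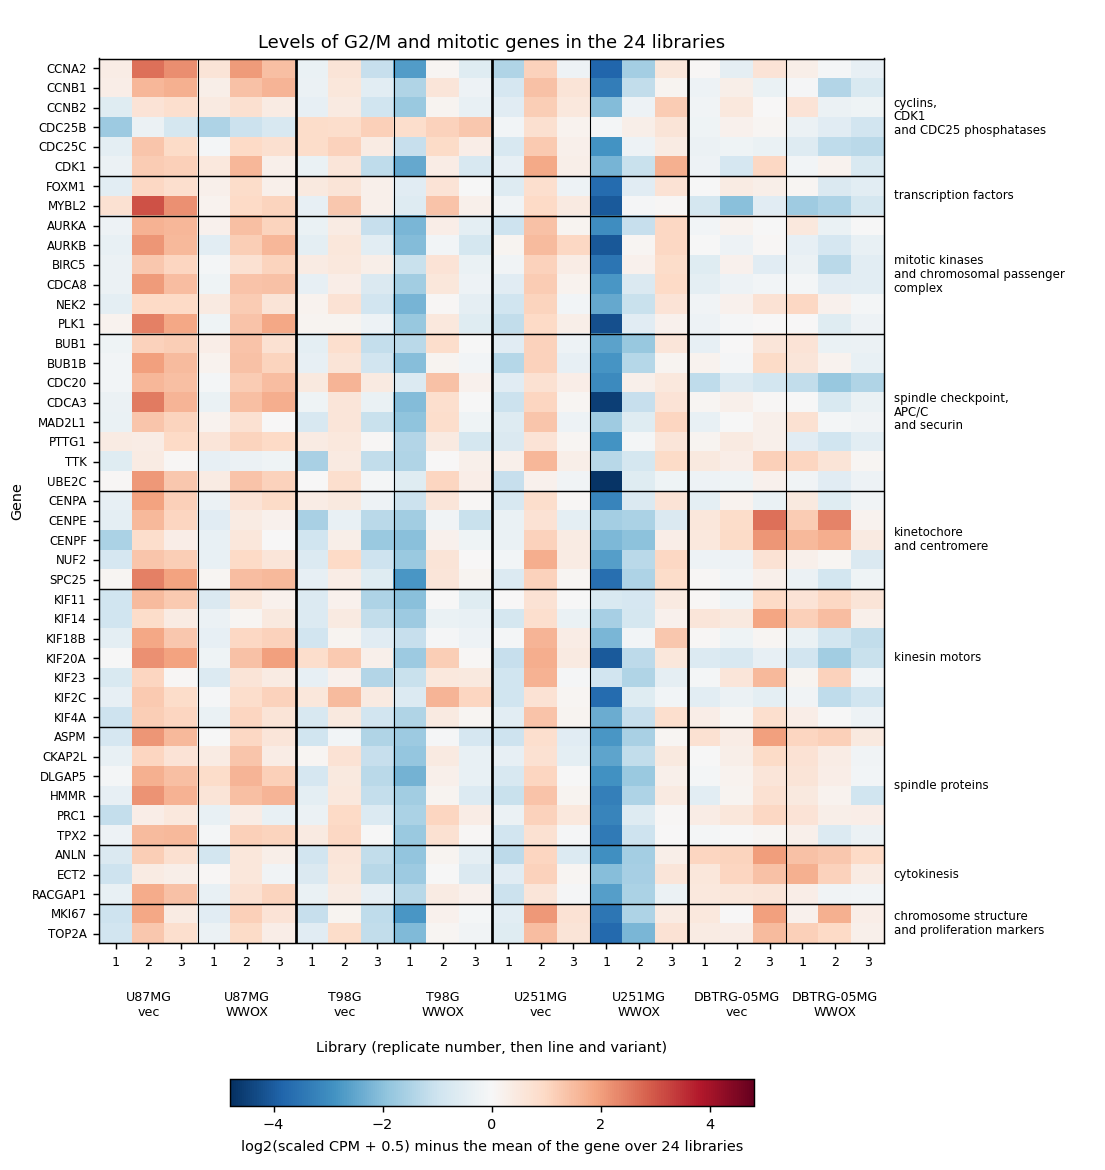
Level of the 45 tested genes in the 24 libraries, as log2(scaled CPM + 0.5) minus the mean of the gene over all libraries, with genes ordered by role and libraries by group. Many columns are nearly uniform from top to bottom, those of DBTRG-05MG less so, and replicate 1 of U251MG WWOX and replicate 1 of T98G WWOX are low for nearly every gene.

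On the log2 scale the SD between replicate libraries of a group, pooled over the 8 groups, had a median of 0.967 over the 45 members and of 0.398 over all genes tested. It was 0.827 over the 56 other mitotic genes and 0.694 over the 42 DNA replication and S phase genes, so these lists had a wide spread too. For 44 of the 45 it lay above the 95th percentile of all genes. The exception was CDC25B, one of the phosphatases that activate CDK1, with an SD of 0.388, and the largest belonged to CDCA3, a gene linked to mitotic entry, with 1.31. The deviations of the libraries from their group means were shared between members. Over the 24 libraries the Pearson correlation of these deviations had a median of 0.876 over the 990 pairs of members (Spearman 0.850), and 98.3% of the pairs were above 0.5. Without the 2 libraries farthest from their group mean, U251MG WWOX replicates 1 and 3, the median of these pairs was 0.858. Over pairs of all genes tested the median was 0.002.

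CCNA2, the cyclin of S phase and G2, followed the mean of the other 44 members most closely, with r = 0.989, next to CDCA8 (borealin, of the chromosomal passenger complex) with 0.984 and the chromosome-bound kinesin KIF4A with 0.980. For 34 of the 45 the correlation was above 0.9. The lowest values were those of CENPE, the kinetochore kinesin, with 0.673, of KIF23, the central spindle kinesin, with 0.694, and of CDC25B with 0.727. These points share library and depth, and the correlations are descriptions. CENPE and KIF23 were also among the genes with few tags, at most 24.8 and 8.36 CPM in any library.

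**Figure D3:**
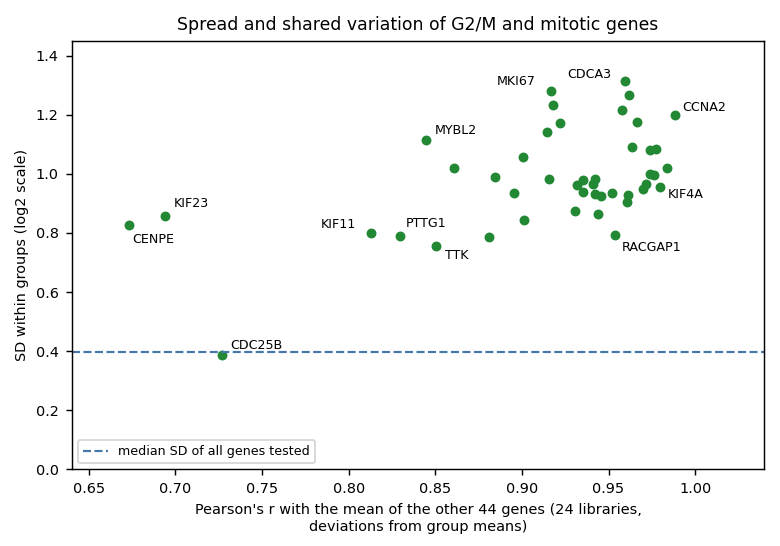
Each point is 1 of the 45 genes, with the SD of log2 level within groups on one axis and, on the other, the Pearson correlation of its deviations with the mean of the other 44 genes over 24 libraries. Most genes lie near an SD of 1 and above a correlation of 0.9, while CDC25B has the smallest SD and CENPE the lowest correlation.

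Genes outside the set with the same pattern between replicates were sought over the 24 libraries. Their deviations from the group means were correlated with the mean deviation of the members, so differences between groups do not enter. Of 12282 such genes, 61 had r above 0.9 and 34 of these belonged to the lists of other cell cycle genes. The closest were GTSE1 (0.980), a microtubule-associated protein of G2, HJURP (0.979), the chaperone of the centromeric histone CENPA, and the cytokinesis kinase CIT (0.971). Of those outside the lists, MTFR2 (0.957), NEIL3 (0.956) and UBE2T (0.955) came first. The most negative were PTPDC1 (−0.877), L3MBTL3 (−0.862) and STK32A (−0.861). Pairs within the list of other mitotic genes had a median correlation of deviations of 0.767 and those within the DNA replication list one of 0.759, while the subunits and regulators of the APC/C had one of 0.031.

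With this spread, no mitotic gene passed the threshold for WWOX versus vec in any line. In U251MG all 45 had a lower fitted level in the WWOX libraries, with a median log2FC of −1.24, and in the other lines the medians were −0.32 for T98G, −0.21 for DBTRG-05MG and −0.12 for U87MG. The T98G median was −0.14 with DESeq2 and −0.17 with edgeR, and the U87MG median −0.27 with both and −0.06 on the CPM as deposited. With libraries weighted by how well they follow the model, an alternative chosen after seeing the data, the medians were 0.19 for T98G with 16 of 45 negative, 0.07 for U251MG with 22 negative, −0.08 for DBTRG-05MG with 31 and −0.04 for U87MG with 26. The limma model with Benjamini-Hochberg adjustment called 0 of 45 in each line, as did edgeR, limma-voom and DESeq2 on recovered tags, while limma called 3.2% of all tested genes for U87MG, 1.14% for T98G, 0.316% for U251MG and 1.02% for DBTRG-05MG. The unadjusted p was under 0.05 for 12 members in U251MG, where 11.5% of all tested genes reached this, and for 0 in the others, where 11.5% of all tested genes did so for U87MG, 11.5% for T98G and 7.63% for DBTRG-05MG. All 12 were lower in WWOX, a direction that 5.57% of all genes took at that level. In U251MG edgeR gave 4, limma-voom 12 and DESeq2 6 at that level, in U87MG DESeq2 gave 1, and the other counts of these tools were 0. The medians of all tested genes were −0.00, −0.05, 0.00 and 0.00 in the order U87MG, T98G, U251MG and DBTRG-05MG. Negative values were found for 31, 37, 45 and 36 of the 45 members in U87MG, T98G, U251MG and DBTRG-05MG, where 50.7%, 54.5%, 49.4% and 49.9% of all genes were negative. On the CPM as deposited they were 27, 37, 44 and 34. Since the members deviate together, these signs are not independent of each other.

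The SE of a log2FC in a line had a median of 0.695 over the members and 0.321 over all genes. The median bounds of the 95% interval were −2.66 and 0.21 in U251MG, −1.66 and 1.39 in U87MG, −1.73 and 1.19 in T98G, and −1.73 and 1.33 in DBTRG-05MG; a p above the threshold does not show that the variants had equal levels.

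**Figure D4:**
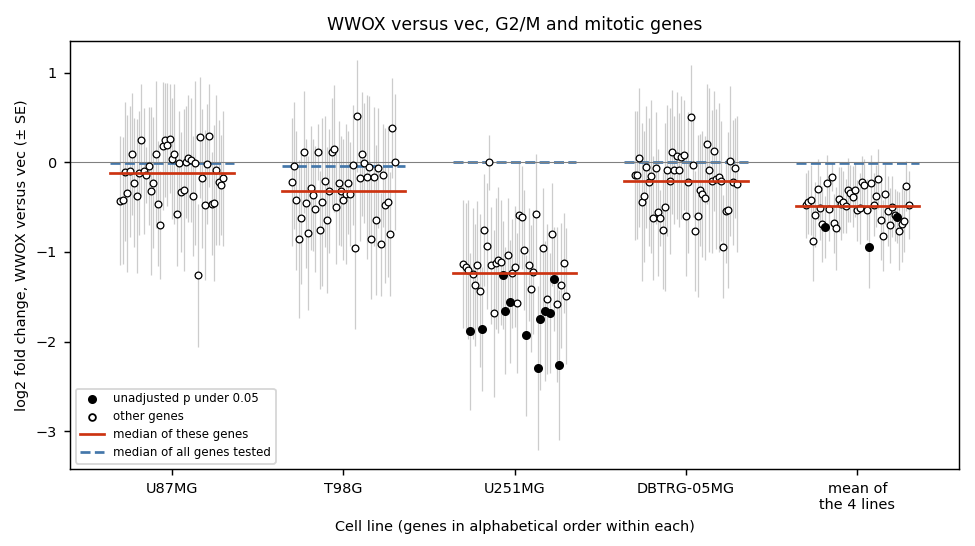
log2FC of WWOX versus vec with its SE for each of the 45 genes in the 4 lines and for the mean of the 4 lines, filled where the unadjusted p is under 0.05, with the median of the 45 genes as a red line and that of all tested genes as a dashed blue line. In U251MG all 45 genes lie below 0 with a median of −1.24, and in the other lines the median is between −0.32 and −0.12.

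TOP2A, the topoisomerase that untangles sister chromatids, was measured at 36.8, 171.6 and 85.7 CPM in the U251MG vec libraries and at 4.32, 9.15 and 108.7 CPM in the WWOX libraries. MKI67, the coat protein of mitotic chromosomes and the antigen of the Ki-67 stain, was at 21.4, 142.7 and 50.4 CPM in vec and at 2.68, 8.30 and 48.1 CPM in WWOX. In both genes the WWOX libraries 1 and 2 lay below every vec library and replicate 3 lay among them. The log2FC was −2.26 ± 0.84 (SE) for TOP2A, with an adjusted p of 0.276 (limma, Benjamini-Hochberg), and −2.30 ± 0.91 for MKI67, with an adjusted p of 0.321. CCNB1, cyclin B1 itself, was at 75.2, 382.7 and 203.4 CPM in vec and at 14.9, 46.2 and 174.9 CPM in WWOX, with a log2FC of −1.86 ± 0.69 and an adjusted p of 0.276. Here too the groups overlapped through WWOX replicate 3.

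The other U251MG genes at an unadjusted p under 0.05 were PRC1, CENPF, DLGAP5, RACGAP1, MYBL2, AURKB, KIF20A, NUF2 and CENPE. PRC1, which bundles antiparallel microtubules of the central spindle, had a log2FC of −1.68 ± 0.67 (adjusted p of 0.326, limma), the kinetochore protein CENPF −1.65 ± 0.71 (0.368), and the cytokinesis kinesin KIF20A −1.93 ± 0.90 (0.418). MYBL2 was at 33.7, 82.0 and 52.8 CPM in vec and at 2.19, 29.5 and 48.8 CPM in WWOX, with −1.74 ± 0.80 (0.405). CENPE, with 2.35, 5.65 and 2.08 CPM in vec and 0.755, 0.572 and 2.03 CPM in WWOX, was the only member whose WWOX libraries all lay below the vec libraries in U251MG, where 5.01% of all genes did so. The remaining genes of the fixed set had smaller ratios to their SE: PLK1, the polo kinase, with −1.53 ± 0.84, the checkpoint kinase BUB1 with −1.37 ± 0.68, the spindle pole kinase AURKA with −1.20 ± 0.78, FOXM1 with −1.17 ± 0.67, the contractile ring protein ANLN with −1.13 ± 0.72, CDK1 with −1.09 ± 0.82 and CDC20 with −0.93 ± 0.70.

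The values of U251MG turned on single libraries. Without WWOX replicate 1, the library with the lowest mitotic sum, the median of the members was −0.37, 38 of the 45 were negative and 0 had an unadjusted p under 0.05 in the limma model. This library also stood apart in astroglial markers: S100B was at 31.8 CPM in it against 144.1 to 342.7 CPM in the other U251MG libraries, NES at 40.1 CPM against 49.4 to 129.2 CPM and VIM at 28.7 CPM against 38.2 to 68.2 CPM, while SOX2, at 268.1 CPM, was close to WWOX replicate 3 at 265.6 CPM and above the other 4, at 31.0 to 172.1 CPM. The 6 glioma and astroglial markers summed to 483.1 CPM in it against 2445 to 3754 CPM in the other 5. The part of this difference in the result was not tested. With the library labelled U251MG WWOX replicate 2 left out, which lay below the vec range for WWOX, the median was −1.34 and 11 members were at that level, against 23.4% of all genes. Without WWOX replicate 3 the median was −2.08, 40 members were at an unadjusted p under 0.05 against 12.9% of all genes, and TOP2A was called with a log2FC of −3.49 and an adjusted p of 0.0309. The library weights behind the median of 0.07 were 1.60 for WWOX replicate 3 and 0.263 and 0.140 for WWOX replicates 1 and 2. Leaving out vec replicate 1 moved the median to −1.69 with 26 members at an unadjusted p under 0.05, against 12.0% of all genes. Leaving out vec replicate 2 moved it to −0.78 with 0, against 10.4%, and leaving out vec replicate 3 to −1.31 with 6, against 6.73%.

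In U87MG and T98G the direction of the median itself depended on 1 library. MYBL2 in U87MG, the member with the lowest p there, was at 57.0, 286.1 and 174.9 CPM in vec and at 43.8, 69.4 and 76.8 CPM in WWOX, with a log2FC of −1.26 ± 0.80 and an adjusted p of 0.660 (limma). The vec range held the upper WWOX values. CENPE (−0.70 ± 0.60) and the bipolar spindle motor KIF11 (−0.58 ± 0.58) came next. The median of the U87MG members was 0.21 without WWOX replicate 1, 0.19 without vec replicate 2, 0.07 without vec replicate 3 and −0.73 without vec replicate 1. In T98G, securin (PTTG1, the guard of the cohesin-cutting protease) was at 188.6, 223.1 and 132.1 CPM in vec and at 51.8, 192.0 and 82.7 CPM in WWOX, with −0.92 ± 0.57 and an adjusted p of 0.584, and the groups overlapped. The centrosomal kinase NEK2 had −0.85 ± 0.67 and the spindle assembly factor TPX2 −0.80 ± 0.69. The T98G median was 0.29 without WWOX replicate 1 and 0.08 without vec replicate 2.

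DBTRG-05MG had the closest replicates by the summed level, and there 9 members had all WWOX libraries below all vec libraries after scaling, against 10.4% of all genes in that direction. On the CPM as deposited these were 2, CDC25C and PTTG1, against 8.35%. The 9 were AURKB, CDC25B, CDC25C, CDCA3, KIF18B, KIF20A, PTTG1, RACGAP1 and SPC25, and none passed the adjusted threshold. PTTG1 was at 176.0, 212.7 and 214.5 CPM in vec and at 123.7, 92.1 and 113.7 CPM in WWOX, with −0.94 ± 0.57 and an adjusted p of 0.808 (limma). CDC25B was at 31.8, 41.3 and 43.5 CPM in vec against 33.4, 27.5 and 19.1 CPM in WWOX as deposited. Its groups overlapped on that scale and were apart after scaling, with −0.62 ± 0.31 and an adjusted p of 0.673. CDC25C, the sister phosphatase, was at 5.83, 5.92 and 6.26 CPM in vec and at 5.13, 3.11 and 2.60 CPM in WWOX, with −0.76 ± 0.66 and an adjusted p of 0.927. In T98G and U87MG 0 members were apart in either direction, where 16.2% and 17.5% of all genes were. The DBTRG-05MG median was 0.07 without vec replicate 3 and −0.01 without WWOX replicate 3.

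By role, the U251MG medians ran from −2.28 for MKI67 and TOP2A and −1.59 for the 5 kinetochore and centromere genes to −1.12 for the 6 cyclin, CDK1 and CDC25 genes. The 7 kinesins and the 8 checkpoint, APC/C and securin genes both had a median of −1.14. In the other lines, every role had a median between −0.64 and 0.04. The lowest, −0.64, was that of the mitotic kinases and passenger proteins in T98G, and the highest, 0.04, that of the spindle proteins in U87MG. BUB1 and CENPF illustrate the contrast: outside U251MG the log2FC of BUB1 was −0.05 for DBTRG-05MG, 0.11 for T98G and 0.09 for U87MG, and that of CENPF was 0.07, 0.15 and 0.18 in this order.

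Averaged over the 4 lines, all 45 members had a negative log2FC, where 52.2% of all genes did, with a median of −0.48 against −0.01. With library weights, chosen after seeing the data, 23 of the 45 were negative and the median was −0.02, and without U251MG WWOX replicate 1 the median was −0.25. None was called by limma, edgeR, limma-voom or DESeq2, where limma called 1.8% of all genes. At an unadjusted p under 0.05 limma had 3, edgeR 1, limma-voom 5 and DESeq2 2, against 15.5% of all genes with limma. The 3 were KIF20A with −0.95 ± 0.45 (adjusted p of 0.316), CCNB1 with −0.72 ± 0.34 (0.319) and RACGAP1, a central spindle protein, with −0.61 ± 0.29 (0.311). Line by line, 22 members were negative in all 4 lines, 16 in 3 lines, 6 in 2 lines and 1 in 1 line.

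Whether the effect of WWOX differed between the lines was tested as the effect in 1 line minus the mean effect in the others. In U251MG the median of the members was −1.03, and in U87MG, T98G and DBTRG-05MG it was 0.54, 0.24 and 0.39. limma, edgeR, limma-voom and DESeq2 called 0 of 45 in each of the 4 tests, where limma called 2.39% of all genes for U87MG, 1.53% for T98G, 0.422% for U251MG and 0.982% for DBTRG-05MG. At an unadjusted p under 0.05 there were 3 members for U251MG with limma, 1 with edgeR, 3 with limma-voom and 1 with DESeq2, and 0 for the other lines with any of them. With limma 11.4% of all genes were at that level for U251MG, 9.92% for U87MG, 12.8% for T98G and 7.07% for DBTRG-05MG. The 3 were MKI67 (−2.21 ± 1.05, adjusted p of 0.433), TOP2A (−2.09 ± 0.97, 0.412) and CENPF (−1.79 ± 0.82, 0.405). The members nearest the threshold for the other lines were PTTG1 for U87MG (1.18 ± 0.66, 0.642), KIF23 for T98G (0.99 ± 0.72, 0.619) and CDC25B for DBTRG-05MG (−0.61 ± 0.36, 0.884). The U251MG effect was therefore not shown to differ from that of the other lines.

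Between the lines themselves, few mitotic genes passed the test when all libraries weighed the same. In the vec libraries, each line was compared with the mean of the others, so these 4 comparisons share the same 12 libraries. The methods give MEM as the medium of T98G, EMEM as that of U87MG and U251MG, and RPMI as that of DBTRG-05MG. Here and below, line and medium cannot be told apart where lines with different media are compared. Of the 45 members 4 were called for DBTRG-05MG, where 42.6% of all genes were called, 3 for U87MG (45.0% of all genes), 3 for T98G (40.5%) and 0 for U251MG (34.9%). In U251MG an unadjusted p under 0.05 was reached by 0 members with limma, edgeR, limma-voom and DESeq2, and by 42.7% of all genes with limma. For U87MG edgeR called 7 and DESeq2 9, and limma called 14 without U87MG vec replicate 1, 7 without U251MG WWOX replicate 1 and 1 without U87MG vec replicate 2. For T98G limma called 1 without T98G vec replicate 1, 6 without T98G vec replicate 2 or U87MG vec replicate 1 and 5 without U251MG WWOX replicate 3. For DBTRG-05MG DESeq2 called 7, and limma called 1 to 7 with 1 library left out. With library weights, chosen after seeing the data, limma called 25 members for U87MG, 28 for T98G, 13 for DBTRG-05MG and 4 for U251MG. The medians of the members were −0.10 for DBTRG-05MG, −0.12 for U251MG, −0.64 for T98G and 0.65 for U87MG. Negative values were found for 27, 26, 35 and 7 of the 45 in the same order. Of all 12327 genes, 5990, 6109, 6285 and 6451 were negative. The signs of the members are not independent of each other. The SE had a median of 0.567 over the members and 0.262 over all genes. Fewer calls among the members therefore do not show that they differed less between lines than other genes.

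CDC25B gave the firmest differences. It was at 9.09, 25.2 and 19.3 CPM in U87MG vec, at 59.7, 64.6 and 65.3 CPM in T98G vec, at 32.2, 65.3 and 40.1 CPM in U251MG vec and at 31.8, 41.3 and 43.5 CPM in DBTRG-05MG vec. U87MG was below the mean of the other lines by a log2FC of −1.37 ± 0.25 (adjusted p of 0.000108, limma), and T98G was above it by 1.17 ± 0.25 (adjusted p of 0.000735). After scaling, the U87MG libraries lay below, and the T98G libraries above, all vec libraries of the other lines, while on the CPM as deposited this held for U87MG alone. In T98G 7.5% and in U87MG 11.7% of all genes were apart in the same direction.

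MYBL2 was higher in U87MG vec, by 2.10 ± 0.65 (adjusted p of 0.0115, limma), at the 57.0, 286.1 and 174.9 CPM given above. It was lower in DBTRG-05MG vec, at 22.3, 9.27 and 30.4 CPM, by −2.06 ± 0.65 (0.0139). After scaling the DBTRG-05MG libraries lay below those of all other lines, which 7.4% of all genes did, but on the CPM as deposited they did not, and the U87MG libraries overlapped with the others on both scales. CCNA2 was at 21.6, 103.5 and 88.7 CPM in U87MG vec, against 6.41 to 44.1 CPM in the vec libraries of the other lines, and was called higher, by 1.87 ± 0.70 (0.0336). CDC20 was at 54.7, 78.0 and 76.3 CPM in DBTRG-05MG vec, below the 82.9 to 389.4 CPM of all other vec libraries, with −1.58 ± 0.57 (0.0303). Left-out libraries ended some of these calls: MYBL2 had an adjusted p of 0.101 in U87MG without its vec replicate 2 and 0.103 in DBTRG-05MG without its vec replicate 2. CCNA2 reached 0.172 without U87MG vec replicate 2 and 0.138 without vec replicate 3, and CDC20 0.112, 0.0566 and 0.0836 without the DBTRG-05MG vec replicates 1, 2 and 3. Both also lost their call on the CPM as deposited (CCNA2 0.0610, CDC20 0.0519) and without the filter on low genes (0.0639 and 0.0575).

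ANLN was higher in DBTRG-05MG vec, at 53.3, 53.6 and 115.4 CPM against 8.87 to 55.4 CPM elsewhere, with 1.50 ± 0.59 (adjusted p of 0.0430, limma). CENPE was called in opposite directions in different lines, higher in DBTRG-05MG by 1.48 ± 0.49 (0.0188) at 4.91, 5.99 and 24.8 CPM, and lower in T98G by −1.75 ± 0.49 (0.0068) at 0.633, 2.32 and 0.778 CPM. TTK, the kinase at the head of the spindle checkpoint, was at 0.844, 5.20 and 1.09 CPM in T98G vec and lower there by −1.21 ± 0.46 (0.0374). The libraries of these genes overlapped with those of other lines. CENPE lost its call in DBTRG-05MG without vec replicate 3 (0.84, adjusted p of 0.243) and in T98G without vec replicate 1 (−1.51, 0.0560). ANLN lost its call without any 1 of 9 libraries, with the highest adjusted p, 0.203, without DBTRG-05MG vec replicate 3 (1.19), and also with edgeR (0.0530) and without the filter (0.0783). TTK lost it without any 1 of 6 libraries, with the highest, 0.251, without T98G vec replicate 1 (−0.83), and with edgeR (0.122), limma-voom (0.0656), DESeq2 (0.0659) and without the filter (0.0710), so that none of the 3 count tools called it.

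**Figure D5:**
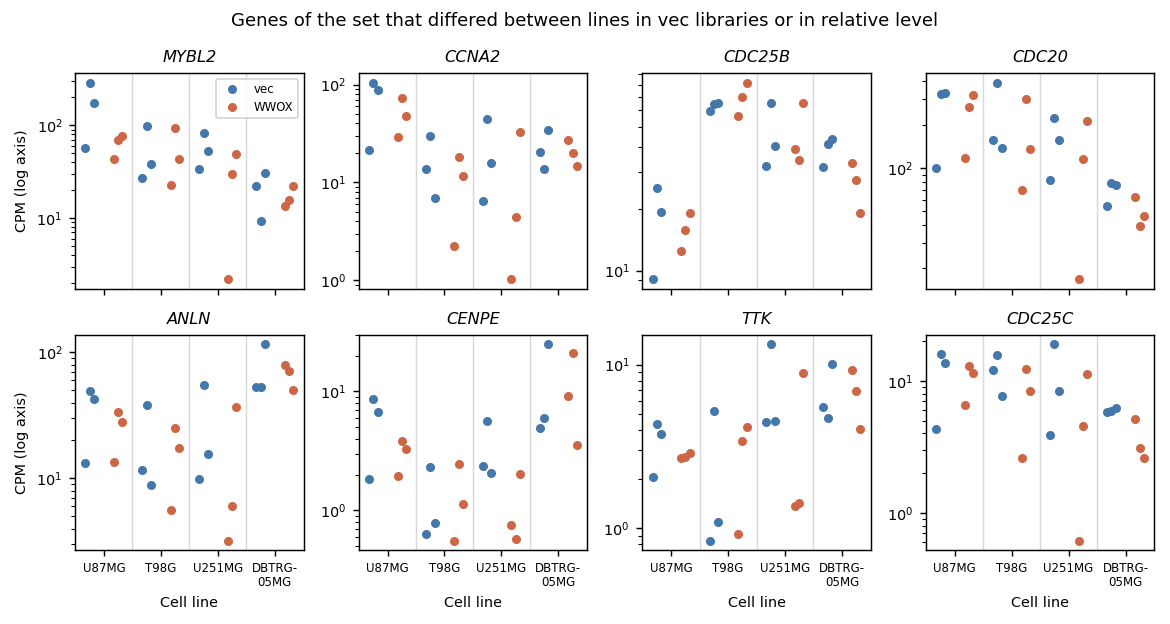
CPM in each library, on log axes, of the 7 genes called between vec lines, MYBL2, CCNA2, CDC25B, CDC20, ANLN, CENPE and TTK, and of CDC25C, by line and variant. By the mean of the vec libraries, CDC25B is lowest in U87MG and highest in T98G, CDC20 is lowest in DBTRG-05MG, and ANLN is highest there.

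The composition of the set was compared as well. Each member was expressed relative to the mean of the 45 members in the same library, which removes the shared part of the replicate spread: the median SD within groups went from 0.967 to 0.341. On this scale all 6 libraries of a line, vec and WWOX alike, lay apart from the other 18 in 6 of the 180 combinations of member and line (3.33%), none of them in U251MG, against 2.08% of the combinations over all genes treated in the same way. By level without this step it was 1 of 180 (0.556%) for the members and 7.51% for all genes. For genes that do not follow the members, the step adds the shared spread of the members instead of removing it. The shares of 3.33% and 2.08% are therefore not on equal terms, and no conclusion is drawn from their difference. The 6 are described because they were apart. On this log2 scale, ANLN was 1.02 to 1.43 above the mean of the members in the 6 DBTRG-05MG libraries, and −0.78 to −0.00 in the 18 libraries of the other lines. CDC20 was at 0.56 to 1.56 in DBTRG-05MG and at 1.92 to 3.51 in the others, and CDC25C at −2.88 to −2.00 against −1.93 to −0.57. In T98G the microtubule-depolymerizing kinesin KIF2C was at 0.75 to 1.08 against −1.24 to 0.27. In U87MG CCNA2 was at 0.28 to 0.78 against −1.45 to −0.29, and CDC25B at −1.47 to −0.78 against −0.11 to 3.26.

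Other genes of the cell cycle were read from lists chosen by function. Of the 56 other mitotic genes tested, 54 had a negative log2FC in U251MG with a median of −0.81, against 49.4% of all genes negative. An unadjusted p under 0.05 was reached by 7 (12.5%) in limma (edgeR 3, limma-voom 7, DESeq2 5), near the 11.5% of all genes. The DNA replication and S phase genes, 42 tested, had medians of −0.43 for DBTRG-05MG, −0.57 for U251MG, −0.18 for T98G and −0.51 for U87MG, and 39, 40, 29 and 41 of them were negative. Averaged over the lines all 42 were negative with a median of −0.43, against 52.2% of all genes, and 9 (21.4%) had an unadjusted p under 0.05 in limma (edgeR 8, limma-voom 9, DESeq2 10), against 15.5% of all genes. Pairs within this list had a median correlation of deviations of 0.759, so these signs are not independent of each other either. No gene of these 2 lists, of the 17 APC/C subunits and regulators, of the 12 genes of mitotic entry control or of the 12 G1 cyclins and CDK inhibitors was called in any line or in the mean by limma, edgeR, limma-voom or DESeq2. At an unadjusted p under 0.05 limma had at most 2 in these last 3 lists in any line or in the mean.

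The only call for WWOX versus vec in these lists was E2F7, an atypical E2F that represses transcription, in U87MG. There limma called 3.2% of all genes, and in 17.5% the libraries of the variants did not overlap. E2F7 was at 1.78, 1.47 and 2.67 CPM in vec and at 15.1, 14.4 and 16.7 CPM in WWOX, with no overlap and a log2FC of 2.68 ± 0.59 (adjusted p of 0.0094, limma). edgeR and DESeq2 called it as well, limma-voom did not (2.91, 0.0820), and without U87MG vec replicate 2 the adjusted p was 0.0600. In T98G, U251MG and DBTRG-05MG its log2FC was −0.35, 0.54 and −0.18. The related repressor E2F8 had values of −0.52, 0.26, −0.36 and 0.12 and the activator E2F1 −0.68, −0.36, −0.59 and −0.33 in U87MG, T98G, U251MG and DBTRG-05MG. CDKN1A, which encodes the CDK inhibitor p21, had values of 0.34, −0.18, 0.23 and −0.34. None of these was called.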

How the data were processed

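CAGE libraries of the 4 lines, each as vec and WWOX variant with 3 replicates, were sequenced as single-end reads. According to the submitters' processing notes and the methods, the authors aligned reads to hg38 with STAR, counted tags with SAMtools and used limma 3.42. The authors deposited CPM per gene, that is, tags per 1000000 tags of the library. All values were whole multiples of 1 tag (100% within 0.01 tags), so tag counts were recovered from the deposited CPM for edgeR, limma-voom and DESeq2 only.

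TMM scaling, the trimmed mean of log ratios without weights, was applied to CPM (30% of M and 5% of A trimmed), and log2 was taken after adding 0.5. The 12327 genes that reached 5 CPM in 1 library or more entered a limma model (version 3.58.1, intensity trend, R 4.3.3) of 8 groups with 16 residual degrees of freedom. It gave log2 fold changes on this scale, which understates changes of low genes, with two-sided p adjusted by Benjamini-Hochberg over all genes, threshold 0.05. Alternatives were pseudocounts of 0.1 and 1, a filter on the mean (5 CPM), no filter, deposited CPM without scaling, scaling by the median of ratios, a model per line, a replicate block, edgeR 4.0.16, limma-voom, DESeq2 1.42.0 and leaving out each of the 24 libraries. Library weights were added after seeing the data. The fits were also run on simulated data in which each gene was drawn independently. Shared deviations such as those of the members were not simulated, so these runs say nothing of their effect on the results. Libraries held 10756072 to 16953689 tags, and depth limits cover counting error only.

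The genes and the lists of other cell cycle genes were chosen with earlier results of these data known. Named members were, in each comparison, the 3 largest rises and falls among those called, or the 3 with the lowest p where none was, plus MKI67, TOP2A, CCNB1, CDK1, FOXM1, MYBL2, AURKA, PLK1, BUB1, CDC20, CENPF, KIF20A, PRC1 and ANLN. Members named beyond this rule were chosen after their values were seen. A gene was called where its adjusted p was under the threshold. Sums of CPM, the correlations of deviations and the motif counts were computed as descriptions, without a test.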

Additional observations from a re-analysis of the deposited data

Results flagged for a closer look

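E2F7 was singled out because its WWOX effect in U87MG differed from the mean effect of the other lines in a direct test. For U87MG limma called 2.39% of all genes in that test. The difference was 2.67 on the log2 scale, with an adjusted p of 0.0379 (limma, Benjamini-Hochberg), and it lay in the 3 WWOX libraries of U87MG at 14.4 to 16.7 CPM against 1.47 to 2.67 CPM in vec. Over the alternatives and the left-out libraries the difference was at least 2.46 and its adjusted p ranged from 6.7e-05 to 0.153. The call was lost without any 1 of 13 of the 24 libraries, each of the 6 U87MG libraries among them, and under 4 other alternatives, limma-voom (0.153), a mean of at least 5 CPM (0.0598), no filter (0.0636) and a pseudocount of 1 (0.0581). Its cause was not tested. None of the 45 tested G2 and mitotic genes passed this test in any line.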

How the results depend on the processing

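The count of 0 members called for WWOX versus vec, in each line, in their mean and in the differences between lines, held under the 11 other ways of processing that keep all libraries. The model per line, which is among them, gives neither the mean nor the differences and covers the single lines only. Library weights, chosen after seeing the data, gave 2 calls for T98G (TTK and PTTG1) and 2 for the difference of T98G (MYBL2 and TTK), and leaving out 1 library gave 0 to 1 calls in U251MG. Calls between vec lines moved more. In U87MG they were 9 with DESeq2, 7 with edgeR, 25 with library weights and 1 to 14 without 1 library, being 14 without U87MG vec replicate 1, 7 without U251MG WWOX replicate 1 and 1 without U87MG vec replicate 2. In T98G they were 1 with a mean of at least 5 CPM, 28 with library weights and 1 to 6 without 1 library, being 1 without T98G vec replicate 1, 6 without T98G vec replicate 2 or U87MG vec replicate 1 and 5 without U251MG WWOX replicate 3. In U251MG they were 4 with library weights. In DBTRG-05MG they were 7 with DESeq2, 13 with library weights, 2 without the filter and 1 to 7 without 1 library, being 2, 1 and 1 without DBTRG-05MG vec replicates 1, 2 and 3 and 7 without T98G vec replicate 2, U251MG vec replicate 2 or U251MG WWOX replicate 3. For these counts the cause was not tested.

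Replicate numbers were not treated as pairs in the main fit. Over all tested genes, the correlations of equally numbered libraries between vec and WWOX ran from −0.546 to 0.510. Not every library correlated best with its own number. The mean deviation of the U87MG members for replicates 1, 2 and 3 was −1.15, 0.76 and 0.40 in vec. It was −0.64, 0.41 and 0.23 in WWOX. In DBTRG-05MG it was −0.24, −0.13 and 0.36 in vec and 0.31, −0.05 and −0.26 in WWOX. Whether equal numbers mark paired libraries is not settled by these values. With the replicate block the calls between vec lines were 12 in U87MG and 5 in T98G, and the block changed no count of WWOX versus vec.

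Signs turned in U251MG. With library weights, which rest mostly on WWOX replicate 3 there by construction, ANLN was 0.39, AURKA 0.40, BUB1 0.20, CDK1 0.75 and FOXM1 0.26. Without 1 library, CDC20 ran from −1.57 to 0.21 and FOXM1 from −2.10 to 0.088, both positive without U251MG WWOX replicate 1. WWOX itself was 0.0066 with CPM as deposited, 0.077 with DESeq2, 0.067 with edgeR, 0.00040 with limma-voom, 0.020 with library weights, and −0.30 to 0.23 without 1 library, positive without U251MG WWOX replicate 2, WWOX replicate 3 or vec replicate 2. Of the other values of named genes, 1321 without 1 library and 616 under the other alternatives kept direction and side of the threshold. Another 40 and 15 lost it, and 2 and 6 gained it, WWOX in U87MG and T98G among them. NUSAP1 was under the limit of 3 tags (0.177 to 0.279 CPM) in every library. It overlaps 3 annotated genes on its strand, and the cause of its low count was not tested.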

Other observations

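Some genes in the lists of other cell cycle genes differed more between the vec libraries of the lines than any G2 and mitotic gene did. The tested members ranged from −2.06 in DBTRG-05MG to 2.10 in U87MG on the log2 scale. E2F7 was lower in U87MG vec by −5.13 on the log2 scale and higher in DBTRG-05MG vec by 4.34 relative to the mean of the other lines. CDKN2C, which encodes the CDK4 and CDK6 inhibitor p18, was higher in DBTRG-05MG by 5.19, and SFN, which encodes a 14-3-3 protein, by 3.91. MAD1L1, the partner of MAD2 in the spindle checkpoint, was higher in T98G by 5.16. The separase gene ESPL1 was higher in U87MG by 1.70, within the range of the members, and the replicative helicase subunit MCM6 by 2.22. Each of these passed the threshold of 0.05 (limma, Benjamini-Hochberg). They were picked as extremes of their lists in these comparisons between lines, so they do not stand for their lists. At that threshold 45.0% of all genes were called for U87MG, 40.5% for T98G and 42.6% for DBTRG-05MG.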
